A study of Mus musculus with 6 samples.

Results

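The Notch pathway members described here were 9 genes: the receptors Notch1 and Notch2, the ligands Dll1, Dll3 and Jag1, the target genes Hes1, Hes5 and Hey1, and the DNA-binding protein Rbpj. They were chosen by name, with earlier results of these data known. Every probe set that the array annotation gives to 1 of these symbols alone was taken. This yielded 16 of the 45037 probe sets tested, with 1 probe set for 4 of the genes and several for 5. RNA came from arcuate hypothalamus microdissected from mice aged 2 weeks, on a mixed C57Bl/6J, FVB/N and 129 background, and was read on 6 Affymetrix Mouse Genome 430 2.0 arrays. The 3 control arrays carry the genotype label Ctrl, with no further allele named. The 3 others came from POMCDicerKO mice, a line named for loss of Dicer from Pomc-expressing cells. The labels do not describe the Cre driver, and in such lines Pomc regulatory sequences usually drive Cre, so that recombination is limited to cells with a Pomc history and most cells of the dissection keep Dicer. The samples are labelled as independent, but no label tells whether each came from 1 mouse or from pooled mice.

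Notch is a receptor that is activated by ligands on a neighbouring cell. Binding leads to cleavage by ADAM proteases and then by gamma-secretase, and the freed intracellular domain enters the nucleus, joins Rbpj and Mastermind proteins, and turns on repressors of the Hes and Hey families. These repressors hold back proneural genes and so keep neural progenitors undifferentiated. In the postnatal hypothalamus, Notch components are known from radial-glia-like tanycytes, astrocytes and blood vessels as well as from remaining progenitors.

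The link from Dicer to this pathway is through microRNAs, which Dicer cuts from hairpins. Among those known to act on the members, miR-9 targets Hes1 and miR-34a targets Notch receptors and ligands, so their mature forms are shown, from RefSeq on GRCm38.p6, with the seed (bases 2 to 8) in capitals. MicroRNA levels were not analysed here.
miR-9-5p: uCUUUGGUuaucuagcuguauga
miR-34a-5p: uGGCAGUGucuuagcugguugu

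Among the member promoters that could be searched, that of Hes5 held the sequence that Rbpj binds. Any relation to its expression was not tested. The 250 bases before annotated starts were searched on both strands for GTGGGAA, the core Rbpj motif. RefSeq windows (GRCm38.p6) were matched for 7 of the 9 members, so that the other targets, Hes1 and Hey1, were not searched. Of the 7, with 9 windows between them, 1 gene, Hes5, held the motif. Over all genes 5.42% of the 32851 windows held the motif, which is a share of windows and not of genes. Hes5 held it on both strands, as 0.0548% of all windows did, with the first base of the match 83 bases before the start site for the motif on the gene's strand and 226 bases before it for the motif on the opposite strand, printed here as its reverse complement TTCCCAC. Stretches of 30 bases around the matches, on the plus strand of chromosome 4, are printed with the motif in capitals. A match describes the sequence and does not show binding.
Hes5 chr4:154960829-154960858: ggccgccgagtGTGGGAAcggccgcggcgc
Hes5 chr4:154960686-154960715: gggcgagcgcgTTCCCACagcccggacatt

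All values below are log2 expression values, in which a step of 1 is a doubling. Array medians lay between 6.02 and 6.05, values ran from 3.05 to 14.35, and the number of arrays limits the precision. Differences are POMCDicerKO minus control from limma, with its standard error, and adjusted p-values cover all probe sets. Transcripts that mark the labelled tissue were bright: Pomc (1433800_a_at) read 9.94, 10.87 and 9.76 on control arrays and 9.35, 9.71 and 9.43 on POMCDicerKO arrays, and Npy averaged 11.98 in controls. Dicer1 (1460571_at), the deleted gene, read 9.22, 9.18 and 9.24 in controls and 9.18, 9.19 and 9.33 in POMCDicerKO. The other Dicer1 probe set, 1427941_at, differed by 0.090. The Dicer1 values thus gave no check of the genotype, and the reason was not tested. Controls 1 and 2 stood apart in meningeal transcripts. The 13 meningeal markers, all lower on average in POMCDicerKO, averaged 0.40 and 0.42 above the control mean on those arrays, against -0.83 on control 3 and -1.17 to -0.58 in POMCDicerKO.

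None of the members differed detectably between the groups. Of the 16 probe sets, 0 passed limma's adjusted threshold of 0.05, which 0% of all probe sets passed, and 0 had an unadjusted p under 0.05, against 2.44% of all probe sets. The groups overlapped at every member probe set, whereas they did not overlap at 6.36% of all probe sets. Member differences ran from -0.24 to 0.088, with unadjusted p between 0.101 and 0.919. The 95% interval included 0 at all 16, and at 15 of them it lay within 1.5-fold in either direction. The exception was Hes5 at 1456010_x_at, whose lower bound was -0.60. The main probe set of a gene, the one with the highest mean over the 6 arrays, was lower in POMCDicerKO for 5 members and higher for 4, with a median of -0.097, against -0.0099 over all 18193 genes, of which 55.1% were lower. In bulk tissue, fewer cells of a type and less RNA per cell cannot be told apart.

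**Figure D1:**
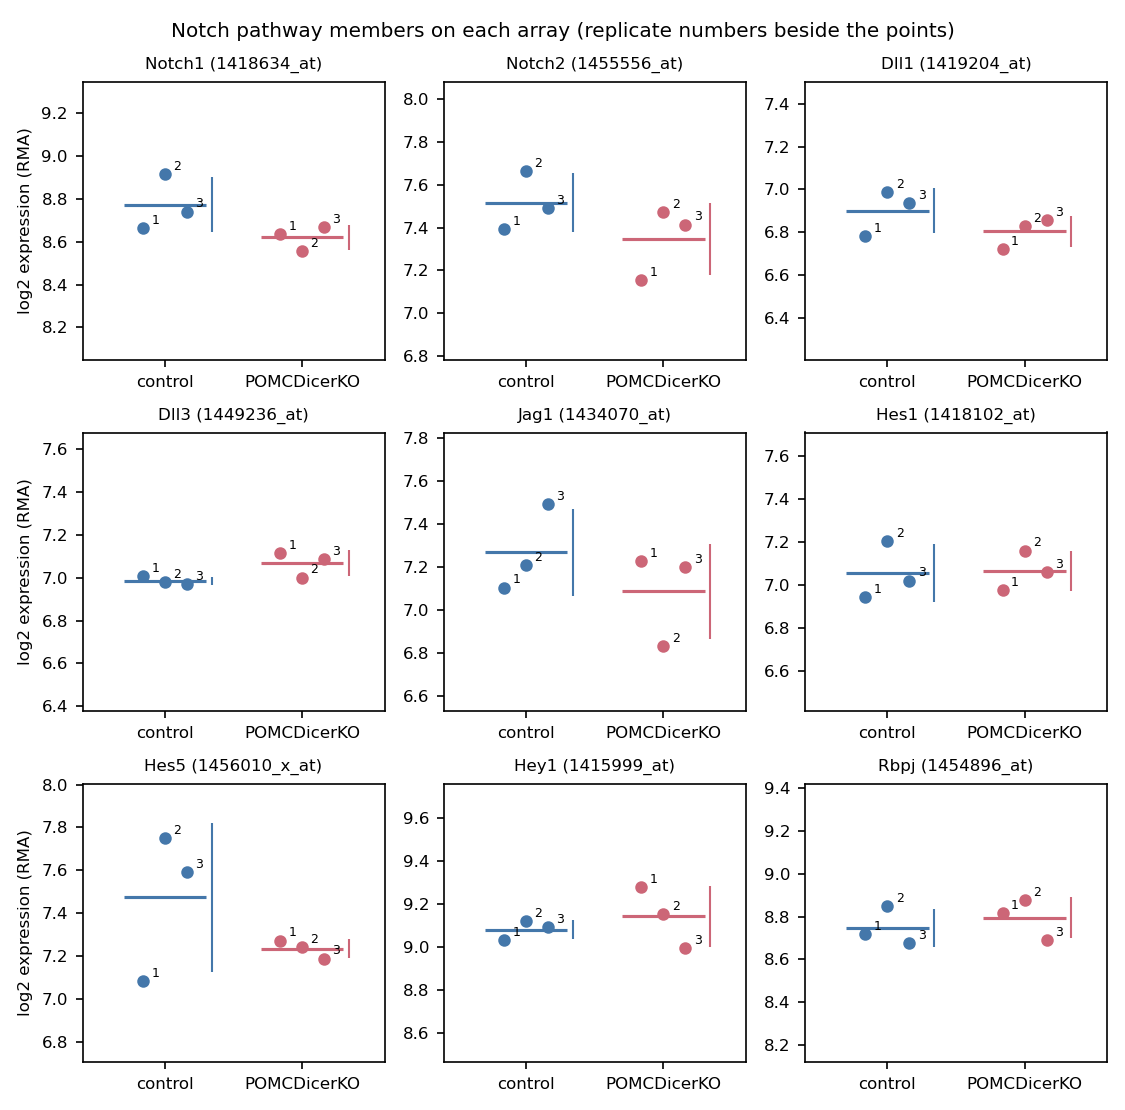
Log2 expression of each member's main probe set on the 3 control (blue) and 3 POMCDicerKO (red) arrays, numbered by replicate, with the group mean (horizontal line) and 1 SD (vertical line); each panel has its own level but the same height in log2 units. The groups overlap in every panel, and Hes5 has the widest spread among controls, from 7.08 to 7.75.

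The receptors read slightly lower on average at their brighter probe sets. Notch1, the receptor that maintains neural progenitors, read 8.66, 8.92 and 8.74 in controls and 8.64, 8.56 and 8.67 in POMCDicerKO at 1418634_at. Control 2 was the highest array, and the highest POMCDicerKO value lay just above the lowest control. The difference was -0.15 with a standard error of 0.082 and an interval from -0.34 to 0.038 (limma adjusted p = 1, two-sided exact permutation p = 0.2, where 3 against 3 arrays cannot go below 0.1). A further Notch1 probe set, 1418633_at, gave 0.029, and its highest and lowest arrays were both controls. The Notch1 probe sets therefore did not share a sign. The difference at 1418634_at was -0.082 without control 2 and -0.21 without control 1, and the average of both probe sets gave -0.062.

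Notch2, a receptor of glia and vessels, read 7.39, 7.66 and 7.49 in controls and 7.15, 7.47 and 7.41 in POMCDicerKO at 1455556_at. POMCDicerKO array 1 alone lay below all controls. Its difference was -0.17 with a standard error of 0.11 (limma adjusted p = 1, exact permutation p = 0.4), and -0.072 without that array or -0.094 without control 2. Averaged over both probe sets it was -0.06. The dimmer 1451889_at, with a mean below the array medians at about 5.3, gave 0.049 with a standard error of 0.084.

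Among the ligands, Dll1 and Jag1 were lower on average and Dll3 higher. Dll1, the Delta ligand that newborn neurons present to progenitors, read 6.78, 6.99 and 6.94 in controls and 6.72, 6.83 and 6.86 in POMCDicerKO at its single probe set, 1419204_at. Control 1 lay among the POMCDicerKO arrays, and the difference was -0.097 with a standard error of 0.079 (exact permutation p = 0.3), or -0.055 without control 2 and -0.16 without control 1. Dll3, a divergent Delta protein that acts mainly inside the cell that makes it, had the tightest controls, at 7.01, 6.98 and 6.97, against 7.12, 7.00 and 7.09 in POMCDicerKO (1449236_at). Only POMCDicerKO array 2 lay within the control range. The Dll3 difference of 0.083 had a standard error of 0.063, the smallest of the 16, and an interval from -0.064 to 0.23.

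Jag1, a Serrate-type ligand of glia and vessels, varied more within groups than between them. At 1434070_at it read 7.10, 7.21 and 7.49 in controls and 7.23, 6.83 and 7.20 in POMCDicerKO. Control 3 was high and POMCDicerKO array 2 low, while the other 4 arrays lay together. The difference of -0.18 had a standard error of 0.14 (exact permutation p = 0.5) and was -0.055 without POMCDicerKO array 2, -0.07 without control 3 and -0.08 averaged over the 3 Jag1 probe sets. The dimmer 1421106_at and 1421105_at gave -0.092 and 0.032, and the first had the widest control spread of all member probe sets, from 5.39 on control 1 to 6.14 on control 3.

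The target genes are turned on by Notch, whose activity itself was not measured, and they did not move together. Hes5, which responds to Notch directly in neural stem cells, read 7.08, 7.75 and 7.59 in controls and 7.27, 7.24 and 7.19 in POMCDicerKO at 1456010_x_at. Controls 2 and 3 lay above all POMCDicerKO arrays and control 1 below them all, so the control SD was 0.35 and the POMCDicerKO SD 0.042 (n = 3 each). The difference was -0.24, or 1.18-fold lower, with a standard error of 0.16 and an interval from -0.60 to 0.13 (limma adjusted p = 1, exact permutation p = 0.4). Probe sets ending in _x_at can cross-hybridise, and the other Hes5 probe set, 1423146_at, read 6.75, 7.30 and 7.08 in controls and 6.82, 7.03 and 6.73 in POMCDicerKO. It gave -0.18 with a standard error of 0.14, also with control 1 lowest among the controls and control 2 highest.

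The size of the Hes5 difference rested on controls 1 and 2. Without control 1 the differences were -0.43 at 1456010_x_at (unadjusted p = 0.0013, adjusted p = 1) and -0.33 at 1423146_at, and without control 2 they were -0.10 and -0.059. Control 1 was the array with the lowest average over the members (-0.12). Leaving it out brought 4 of the 16 member probe sets below an unadjusted p of 0.05, where 2075 of all 45037 probe sets then were. They were both of Hes5, Notch1 1418634_at (-0.21) and Jag1 1421106_at (-0.30), and 0 passed after adjustment. With controls 1 and 2 both left out, so that control 3 was the only control, Hes5 was at -0.36 (1456010_x_at) and -0.22 (1423146_at).

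Hes1, the broadly expressed Hes repressor, read 6.94, 7.21 and 7.02 in controls and 6.98, 7.16 and 7.06 in POMCDicerKO (1418102_at). Array 2 was the highest in both groups and array 1 the lowest. The mean difference was 0.0094 with a standard error of 0.089, so the 95% interval ran from -0.20 to 0.22. Hey1, a repressor found in vessels and glia, read 9.03, 9.12 and 9.09 in controls and 9.28, 9.16 and 8.996 in POMCDicerKO (1415999_at). The POMCDicerKO arrays spanned the whole control range, and the difference of 0.062 (standard error 0.084) was -0.0056 without POMCDicerKO array 1.

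Rbpj, through which all canonical Notch signals pass, was measured by 3 probe sets, each with a small positive difference. The brightest, 1454896_at, read 8.72, 8.85 and 8.67 in controls and 8.82, 8.88 and 8.69 in POMCDicerKO. Array 2 was the highest and array 3 the lowest in both groups, and the differences were 0.048 at this probe set, 0.072 at 1448957_at and 0.088 at 1418114_at, with standard errors of 0.079, 0.087 and 0.11. RefSeq lists 3 Rbpj pseudogenes, and whether the probes also match them was not tested.

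**Figure D2:**
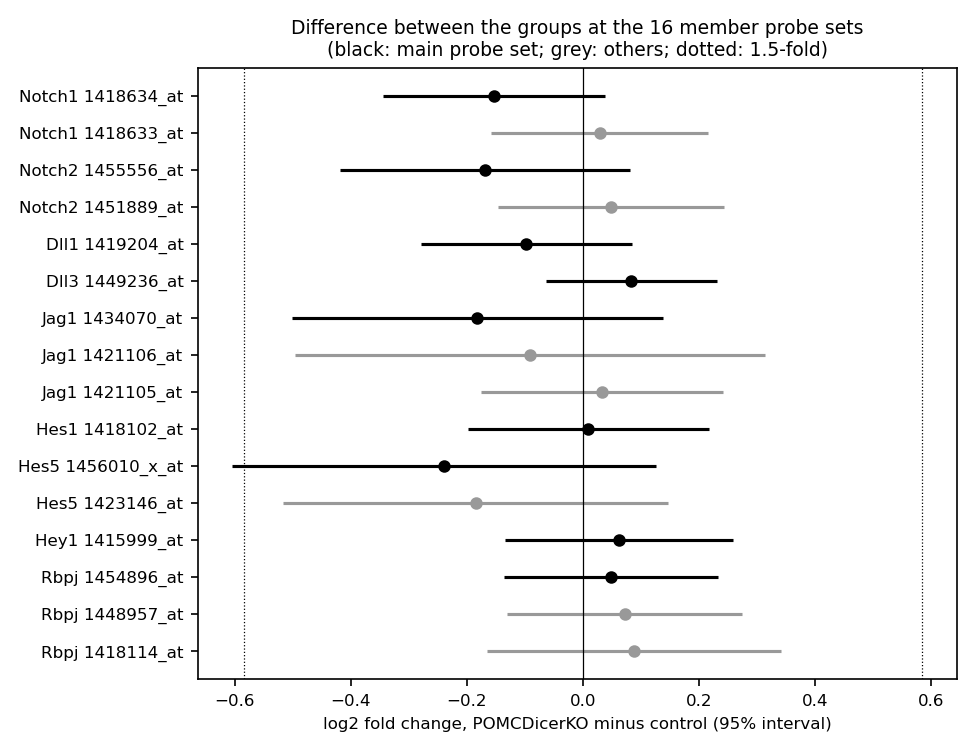
Log2 fold change, POMCDicerKO minus control, with limma's 95% interval for each of the 16 member probe sets; main probe sets are black, others grey, and dotted lines mark 1.5-fold. Every interval crosses 0, and the interval of Hes5 1456010_x_at alone reaches past the 1.5-fold line, at -0.60.

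The wider pathway was described with 8 lists of 53 other genes, of which 50 were measured. None passed limma's adjusted threshold in either direction (0 higher and 0 lower), 1 had an unadjusted p under 0.05 against 2.41% of all genes, and the groups did not overlap at 3 against 6.44% of all genes. By sign, 34 were lower and 16 higher, with a median of -0.031. Across these lists the differences ran from -0.22 to 0.24.

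Steps before the nucleus gave small differences of both signs. Of the other receptors, Notch4 of endothelium was at -0.11 and Notch3 of mural cells at 0.0089. Notch4 was at -0.26 without control 1, -0.0052 without control 2 and -0.012 with its probe sets averaged. Of 5 other ligands 4 were lower, Dll4 at -0.049 and the non-canonical Dlk1 at -0.023. Among 7 measured cleavage genes, 5 were lower. Psen2, a catalytic subunit of gamma-secretase, read 7.97, 8.06 and 8.05 in controls and 7.92, 7.91 and 7.94 in POMCDicerKO, a difference of -0.10 with no overlap (limma adjusted p = 1, exact permutation p = 0.1). The Psen2 difference was -0.0088 when its probe sets were averaged. Aph1b, another gamma-secretase subunit, differed by 0.24 (standard error 0.19), which ran from 0.12 without POMCDicerKO array 3 to 0.46 without POMCDicerKO array 1. With its probe sets averaged, Aph1b differed by 0.123. Of 5 sugar-modifying enzymes 4 were lower, with Pofut1, which adds fucose to Notch, at -0.097 and the Fringe enzyme Mfng at 0.092. The ubiquitin ligases that drive ligand endocytosis were lower for 3 of 4, with Neurl1b at -0.14 (-0.051 without POMCDicerKO array 3) and Neurl1a at -0.081.

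Modulators and nuclear partners included the pathway genes with the smallest p. Kdm5a, a histone demethylase that binds Rbpj, read 8.81, 8.96 and 8.98 in controls and 8.66, 8.76 and 8.66 in POMCDicerKO, without overlap. The Kdm5a difference was -0.22 with a standard error of 0.073 (unadjusted p = 0.0165, limma adjusted p = 1), but -0.011 with the probe sets of Kdm5a averaged (unadjusted p = 0.885). Of 13 measured nuclear cofactors 8 were lower, among them the coactivator Maml1 at -0.16, or -0.08 without POMCDicerKO array 3 and -0.002 with its probe sets averaged. Of 8 inhibitors and turnover genes 6 were lower, with a median of -0.11. In that list Dtx3, of the Deltex ubiquitin ligases, read 8.91, 9.04 and 8.95 against 8.83, 8.80 and 8.84, a difference of -0.14 without overlap, and Dtx1 was at -0.15, or -0.066 without control 2. The 6 other targets split evenly, 3 higher and 3 lower. Nrarp, a Notch-induced feedback inhibitor, read 9.37, 9.67 and 9.66 in controls and 9.51, 9.37 and 9.40 in POMCDicerKO, so that, as for Hes5, control 1 was low. The Nrarp difference was -0.14 with a standard error of 0.097, and it was -0.24 without control 1 and -0.083 without control 2. Hes3, a progenitor repressor near the lower end of the scale, was at 0.084.

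**Figure D3:**
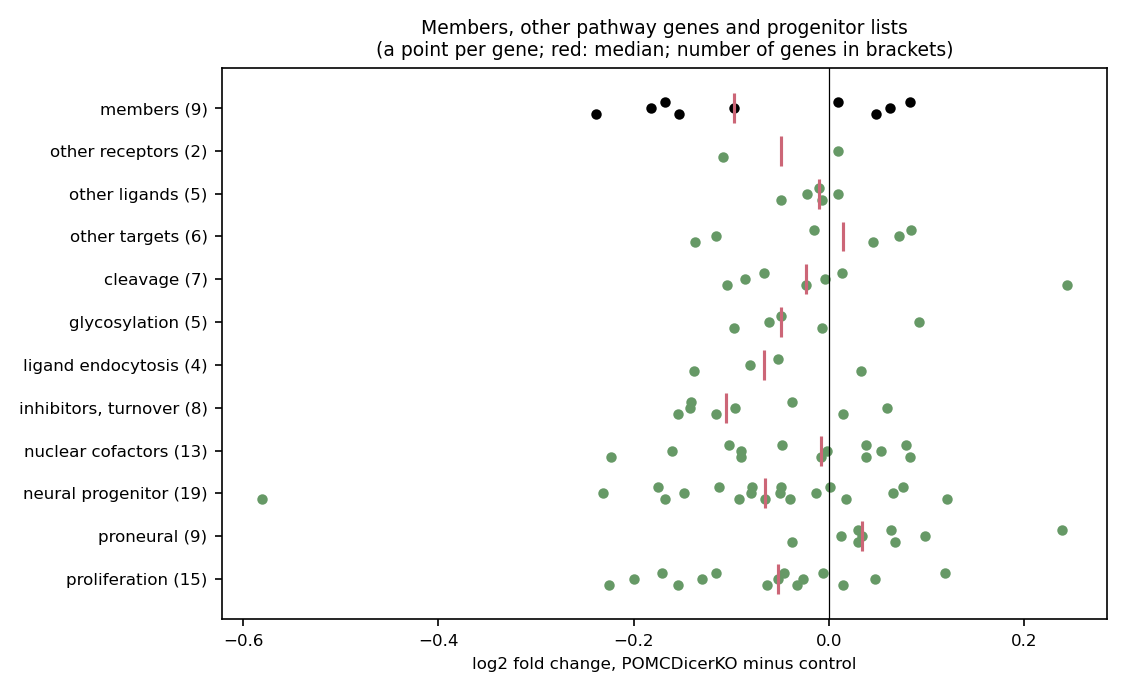
Log2 fold change, POMCDicerKO minus control, of each gene (points) in the 9 members, the 8 lists of other pathway genes and the 3 progenitor lists, with the list median in red and the number of genes in brackets. Most points lie within 0.2 of 0, and the lowest is the progenitor gene Id3 at -0.58.

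Progenitor, proneural and proliferation genes were read for comparison. Of 19 progenitor genes 14 were lower, where 55.1% of all genes were, with a median of -0.066. Of these 19, 1 had an unadjusted p under 0.05, against 2.41% of all genes, and 0 passed. That gene was Id3, an inhibitor of proneural proteins, which read 8.24, 8.68 and 8.76 in controls and 8.03, 7.60 and 8.31 in POMCDicerKO. The groups overlapped through control 1 and POMCDicerKO array 3, and the Id3 difference was -0.58 with a standard error of 0.20 (limma adjusted p = 1, exact permutation p = 0.2). Nr2e1, a stem cell nuclear receptor, was at -0.17, on a dim probe set with values from 4.48 to 4.82, and at -0.066 with its probe sets averaged. Of 9 proneural genes, which Hes proteins repress, 8 were higher, with a median of 0.034. Neurog2 read 4.36, 4.39 and 4.47 in controls and 4.79, 4.49 and 4.66 in POMCDicerKO, a difference of 0.24 without overlap (standard error 0.088, unadjusted p = 0.0271, adjusted p = 1), at levels near the lower end of the scale, and Neurod4 was at 0.067, or 0.017 with its probe sets averaged. Of 15 proliferation genes 12 were lower, where 55.1% of all genes were, with a median of -0.052, and 0 passed. Several of the lower genes averaged below the array medians, among them Tyms at 4.14 and Rrm2 at 5.21 in controls. Tyms was at -0.17 but at -0.031 with its probe sets averaged, and Rrm2 at -0.16 but at -0.058 without control 2.

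The spread of the members over the arrays was next set beside that of cell type markers. Averaged over the 9 members, each gene relative to its control mean, the controls stood at -0.12, 0.097 and 0.022 and the POMCDicerKO arrays at -0.067, -0.075 and -0.071. The POMCDicerKO arrays lay between control 1 and the other controls. Control 2 was the highest array for 5 of the 9 members and the lowest for 0. The progenitor list ran alike, at -0.11, 0.14 and -0.026 in controls and -0.089, -0.085 and -0.078 in POMCDicerKO. Control 2 was also the highest array for proliferation genes (0.11) and for the 10 tanycyte and ependymal markers (0.24). The same held for the 11 arcuate neuron genes (0.24), all 11 lower on average in POMCDicerKO. It also held for the meningeal markers, at 0.42 against 0.40 on control 1. For 9 microglia markers, 8 of them higher on average in POMCDicerKO, control 2 stood at 0.10. The POMCDicerKO arrays stood close below, at 0.098, 0.098 and 0.080. The 3 measured erythroid markers, all lower, stood at -0.76, 0.63 and 0.13 in controls and -0.81, -0.85 and -0.62 in POMCDicerKO, so that, as for Hes5, controls 2 and 3 lay above all other arrays. Alas2 and Slc4a1 had that order, but Hba-a1 did not. Hba-a1 read 5.146, 5.308 and 5.105 in controls and 5.207, 4.883 and 5.024 in POMCDicerKO. The part of the erythroid markers in the member values was not tested. The 9 measured myelin markers were all higher, from -0.15 to 0.13 in controls and from 0.12 to 0.78 in POMCDicerKO. Of them 6 had an unadjusted p under 0.05, as had 6 of the 13 meningeal markers, against 2.41% of all genes. In both lists 0 passed the adjusted threshold. Both lists were chosen with earlier results of these data known, and markers of 1 cell type can rise and fall together on an array. Their counts are therefore a description and carry no test. The tanycyte and ependymal markers, 8 of 10 lower, ranged from -0.15 to 0.24 in controls and from -0.39 to 0.13 in POMCDicerKO, and their part in the member values was not tested. The 12 astrocyte markers, 8 of 12 higher, stayed between -0.02 and 0.019 in controls and between -0.03 and 0.064 in POMCDicerKO. Endothelial markers, 6 of 10 higher, ran from -0.069 to 0.039 in controls and from -0.032 to 0.081 in POMCDicerKO, and mural markers, 5 of 7 higher, from -0.068 to 0.045 and from -0.063 to 0.17.

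**Figure D4:**
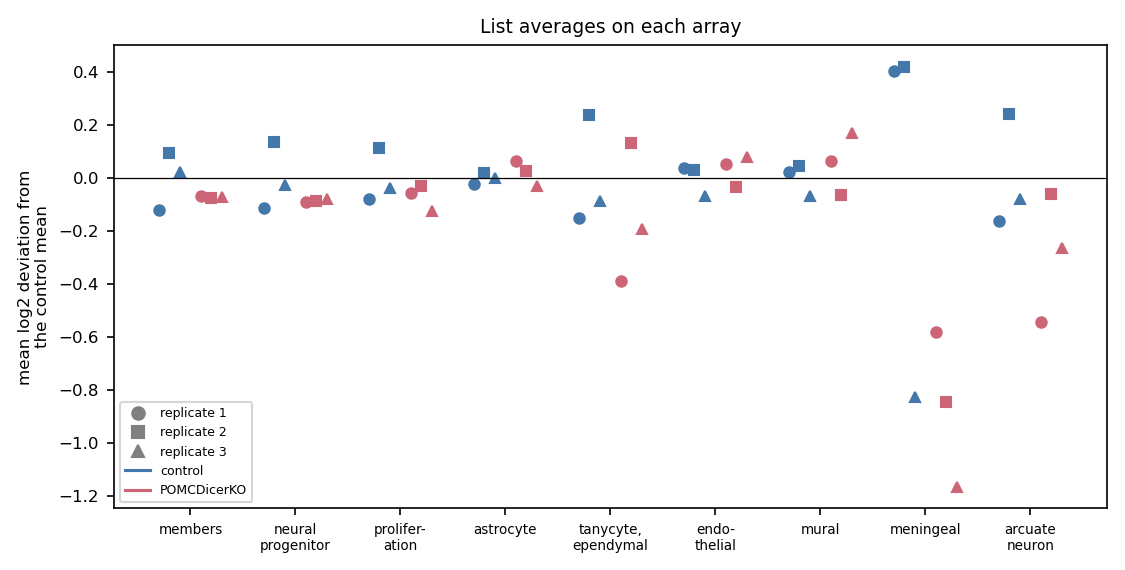
Mean log2 deviation from the control mean over the genes of each list, for the 3 control (blue) and 3 POMCDicerKO (red) arrays, with replicates 1, 2 and 3 as circles, squares and triangles. Control 2 is the highest array for the member, progenitor, proliferation, tanycyte, meningeal and arcuate neuron lists. Meningeal genes range most widely, from -1.17 to 0.42.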

How the data were processed

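The authors deposited 1 log2 expression value for each probe set and array, computed with RMA and the affy package per the submitters' processing notes. Their versions and a genome build are not stated there. RMA corrects background, normalises by quantiles and summarises probes, so a shift shared by most transcripts was removed before deposit. After 64 AFFX control probe sets were left out, 45037 were tested, of which 34945 had 1 gene symbol, 932 several and 9160 none here. Symbols were updated by Entrez identifier (34741 matched) from a RefSeq table of GRCm38.p6. Groups came from sample titles. The test was limma 3.58.1 in R 4.3.3 (lmFit and eBayes, default prior), POMCDicerKO minus control, Benjamini-Hochberg adjusted over all 45037 probe sets at a threshold of 0.05. Single values also had a two-sided exact permutation test. Each pathway and progenitor list is described with the 2 genes of smallest unadjusted p. The members and 23 lists were chosen with earlier results of these data known. The script was tested on simulated data. Alternatives were array centring, a further quantile normalisation, a mean of at least 6, a trend and robust prior, array weights, a replicate block, averaging a gene's probe sets, and leaving out arrays.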

Additional observations from a re-analysis of the deposited data

How the results depend on the processing

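The count of member probe sets past the threshold was 0 under each alternative, and the members' median difference kept its sign, from -0.16 to -0.055 with single arrays left out and at -0.06 when a gene's probe sets were averaged. Over all probe sets the count was 1 with a trend and robust prior, 1 without controls 1 and 2, and 0 to 2 with single arrays left out. The replicate numbers are shared by the groups, but the samples are labelled as independent, so the main test did not pair them. Same-numbered deviations correlated at 0.128, 0.079 and 0.12, and those with unlike numbers between -0.114 and -0.018. Every array thus correlated best with its own number, and whether the numbers mark pairs was not tested. With a replicate block 0 probe sets passed (1396 at an unadjusted p under 0.05, against 1098). The unadjusted limma p then fell from 0.158 to 0.059 for Notch2 1455556_at and rose from 0.101 to 0.139 for Notch1 1418634_at. Signs turned for small differences when single arrays were left out, with ranges of -0.036 to 0.088 for Notch1 1418633_at, -0.013 to 0.10 for Notch2 1451889_at, -0.30 to 0.075 for Jag1 1421106_at, -0.038 to 0.096 for Jag1 1421105_at, -0.047 to 0.084 for Hes1, -0.0056 to 0.14 for Hey1, -0.027 to 0.16 for Rbpj 1418114_at, -0.13 to 0.058 for Dll4, -0.077 to 0.069 for Dlk1, -0.023 to 0.035 for Notch3 and -0.029 to 0.043 for Dicer1. When a gene's probe sets were averaged, signs turned for Neurl1a (0.036), Dll4 (0.0004), Dlk1 (0.023) and Notch3 (-0.015). Without controls 1 and 2 they turned for Dlk1 (0.086) and Dicer1 (-0.012), and with array weights for Dicer1 (-0.0077). The cause was not tested. Filtering at a mean of 6 left out 3 member probe sets.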

Other observations

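Among 11742 genes with a mean of at least 6, those whose values over the 6 arrays were most like Hes5 (1456010_x_at) by Pearson correlation were Lonrf2 (r = 0.99, Spearman rho = 0.94) and Fam220a (r = 0.99, rho = 1), and those most like Hes1 were Sptssa (r = 0.99, rho = 1) and Vwa5a (r = 0.98, rho = 1). Without the 2 arrays farthest from the median of Hes5 or Hes1, r was 0.89 for Lonrf2, 0.98 for Fam220a, 0.96 for Sptssa and 0.94 for Vwa5a. With so few arrays, 44 genes reached an r of 0.95 with Hes5 and 26 with Hes1, so these are descriptions of likeness on the same arrays and carry no test.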
